A study of Homo sapiens with 12 samples.

Results

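The proteins of the mitochondrial ribosome are made from nuclear genes, and those whose symbols begin with MRPL or MRPS followed by a number were followed here in tumours treated with the eIF4A inhibitor zotatifin. The symbol chose 78 of the 19038 transcripts in the RNA table, 1 transcript per gene, of which 49 had an MRPL and 29 an MRPS symbol. The rule uses the symbol alone and no measured value, although the family was taken up with earlier results of these data known. The tumours were xenografts of 22Rv1, an established human prostate cancer cell line, grown under the skin of male immunodeficient NSG mice that were 6 to 8 weeks old at injection. Mice received zotatifin at 0.3 mg/kg in 5% dextrose, or 5% dextrose alone (vehicle), into the peritoneum once tumours had reached 70 to 100 mm3, and tumours were harvested 6 h later. Ribosome footprints and total RNA were sequenced from the same lysates, with 3 tumours per treatment, giving 12 libraries in 4 groups of 3 (vehicle footprints, zotatifin footprints, vehicle RNA and zotatifin RNA). All tumours derive from 1 cell line, and the host keeps its own stroma and part of its myeloid cells. For 6 of the 12 libraries the treatment label contradicts the sample title, and the titles and column names were used.

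The mitochondrial ribosome sits in the mitochondrial matrix and translates the few messages encoded by mitochondrial DNA, which specify core subunits of the respiratory chain and of ATP synthase. Its ribosomal RNAs come from mitochondrial DNA, whereas its proteins are translated on cytosolic ribosomes and imported, so that footprints on MRPL and MRPS messages report cytosolic translation. Some of its proteins descend from the bacterial ribosome and others are additions of the mitochondrial lineage. Zotatifin clamps the RNA helicase eIF4A onto purine-rich messenger RNA, and eIF4A unwinds the 5′ leaders of messages for scanning. By known structure, and not by symbol, 51 of the 78 proteins lie in the large subunit, among them MRPS18A and MRPS30, and 26 in the small subunit. MRPS36 lies in neither and is a component of the 2-oxoglutarate dehydrogenase complex. A bacterial counterpart is known for 46 of the 77 ribosomal members (30 large, 16 small), and 31 are specific to mitochondria (21 large, 10 small).

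Library totals were 5761921 to 7121802 counts for vehicle RNA, 6594884 to 8153674 for zotatifin RNA, 1592316 to 2013968 for vehicle footprints and 838135 to 1540867 for zotatifin footprints. All 78 members passed the filter on low counts in each comparison. Their mean counts per library ran from 30.7 to 766 in footprints (median 129.5) and from 112 to 1823 in RNA (median 434). The median SE of a member's log2 change was nevertheless similar, 0.140 in footprints and 0.136 in RNA. The identity of the tumours was checked on 11 markers of prostate epithelium and its tumours (HOXB13, KLK3, KRT8, EPCAM and others), and all 11 were detected. Their summed footprint level was 4036 to 5329 CPM (counts scaled to library size, with TMM factors) in vehicle and 5286 to 6074 in zotatifin tumours. Of the 11, 7 had a footprint change above 0: FOXA1 (0.57) and KRT18 (0.37, from a mean of 1914 to 2472 CPM) rose, and FOLH1 fell (−0.57). In RNA 0 were called, and the sums of 3552 to 4579 and 4369 to 4663 CPM overlapped. Of 10 fibroblast markers, 5 of the 6 tested in footprints and 4 of the 7 tested in RNA fell; the 10 summed to 470 to 804 footprint CPM in vehicle and 144 to 263 in zotatifin tumours, and to 220 to 368 and 72.4 to 133 in RNA. Of 8 myeloid markers, 2 of the 4 tested in footprints fell; the 8 summed to 69.9 to 318 and 31.0 to 65 footprint CPM, with CD14 at 0 in all footprint libraries. In RNA the myeloid marker CSF1R fell. Endothelial markers were near 0 in footprints (2.78 to 5.72 and 0 to 4.90 CPM) and summed to 6.12 to 14.6 and 3.97 to 6.39 CPM in RNA. Of the 6 red blood cell markers, 5 were tested in footprints, where HBE1 and HBG1 fell and 2 others had a change above 0. In RNA 4 were tested, all with a change below 0, and HBB fell. The 6 summed to 127 to 326 and 139 to 172 footprint CPM. The 7 muscle and adipocyte markers summed to 230 to 364 and 193 to 264 CPM in footprints and to 58.6 to 193 and 22.0 to 67.8 CPM in RNA. Whether mouse reads were removed is not given in the sources used here. The part of these shifts in the members' values was not tested, and in bulk tumours fewer cells of a type and less RNA per cell cannot be told apart.

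Promoters of the members were read from RefSeq (GRCh38.p14, 250 bases before to 50 after each listed start), where 70 of 78 members had an entry. A pair of motifs known from promoters of housekeeping genes was frequent in them. The ETS motif CCGGAAG, bound by factors such as GABP, was in 30 of 70 members (42.9%) on either strand, against 16.5% of all 15842 coding genes. The YY1 motif AAGATGGC was in 21 (30.0%), against 4.66%, and 43 members (61.4%) had at least 1 of the pair, against 20.0%. The YY1 motif lay on the gene's own strand within the first 50 transcribed bases in 16 members (22.9%, against 2.50%), beginning 7 to 36 bases after the start, and on the other strand there in 0 (0.385% of all genes). The letters of the motif contain ATG, and whether this ATG is the start codon of a member was not tested. The windows of 6 of these members are shown because they carry this shared feature in MRPS18A and MRPL42, whose footprints changed, and in others; capitals mark the YY1 motif.
MRPS18A: taggtttttgAAGATGGCggccctcaag
MRPL42: ggattgaaacAAGATGGCgggttcgtgg
MRPS18B: ggcgtacgtcAAGATGGCggcgtctgta
MRPS30: atcgcgggcaAAGATGGCggcggccagg
MRPL50: gatctcatcgAAGATGGCggcgcgatct
MRPS24: cgcttggcccAAGATGGCggcctccgtg
They lie at chr6:43687765-43687792 (minus strand), chr12:93467512-93467539 (plus), chr6:30617853-30617880 (plus), chr5:44808950-44808977 (plus), chr9:101398578-101398605 (minus) and chr7:43869481-43869508 (minus).

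The other motifs had shares, in members against all genes, as follows: the NRF1 motif 12.9% against 9.66%, the CCAAT box 32.9% against 42.1%, the E-box CACGTG 14.3% against 10.9%, the TATA box TATAAA 5.71% against 12.4%, and the oestrogen-related receptor motif TCAAGGTCA 0 of 70 against 0.335%. The purine run AGAGAG, of the kind that zotatifin is known to clamp eIF4A on, was in the first 50 transcribed bases of 1 member (1.43%) against 3.78% of all genes. All motifs were searched as letters on both strands unless a strand is named, and a match is no evidence of binding.

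The 150 bases before the start of the 3 genes whose footprints changed are shown to set their promoters side by side, with matches to any of the motifs searched in capitals.
MRPS18A: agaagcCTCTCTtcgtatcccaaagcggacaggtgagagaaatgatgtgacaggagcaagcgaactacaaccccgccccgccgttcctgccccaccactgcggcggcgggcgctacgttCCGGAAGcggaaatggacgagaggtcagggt
MRPS2: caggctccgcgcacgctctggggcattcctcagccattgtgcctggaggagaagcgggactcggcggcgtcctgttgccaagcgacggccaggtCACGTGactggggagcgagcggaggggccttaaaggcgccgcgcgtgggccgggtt
MRPL42: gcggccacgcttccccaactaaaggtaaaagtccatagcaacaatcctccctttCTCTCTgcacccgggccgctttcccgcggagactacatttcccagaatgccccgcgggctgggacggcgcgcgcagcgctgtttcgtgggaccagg
They lie at chr6:43687792-43687941 (minus strand), chr9:135499815-135499964 (plus) and chr12:93467364-93467513 (plus). In this stretch MRPS18A has an ETS match close to its start and the complement of the purine run AGAGAG farther away. MRPS2 has an E-box, and MRPL42 has the complement of the purine run alone. These purine-run matches lie before the listed start, outside the transcribed bases. In the whole promoter window AGAGAG was as frequent in members (27.1%) as in all genes (28.6%).

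In footprints, 2 members rose after zotatifin (MRPS18A and MRPS2) and 1 fell (MRPL42) at adjusted p under 0.05 (edgeR quasi-likelihood test, adjusted over all genes tested). This was 3 of 78, where 7.14% of all 9544 genes tested were called, 3.22% as higher and 3.92% as lower. Most other members leaned slightly upwards: 59 of 78 had a log2 change above 0, against 50.3% of all genes, and the median change was 0.13 against 0.0030. The members ran from −0.48 to 0.68, and their interquartile range was 0.0034 to 0.26, against −0.21 to 0.22 for all genes. Their median SE was also smaller, 0.140 against 0.192. For 20 members all 3 zotatifin values lay above all 3 vehicle values, which held for 12.9% of all genes, and for 2 members (MRPL24 and MRPL42) all lay below, which held for 13.5%. At an unadjusted p under 0.05 there were 17 members, 16 of them higher, against 22.1% of all genes. The share of members called, 3.85%, was below that of all genes here, but the order of these shares turned without zotatifin tumour 3 (7.69% of members, 5.29% of all genes) and without the filter on low counts (6.41% and 6.02%). Without vehicle tumour 3, 50 of 78 members were above 0 and the median was 0.088.

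**Figure D1:**
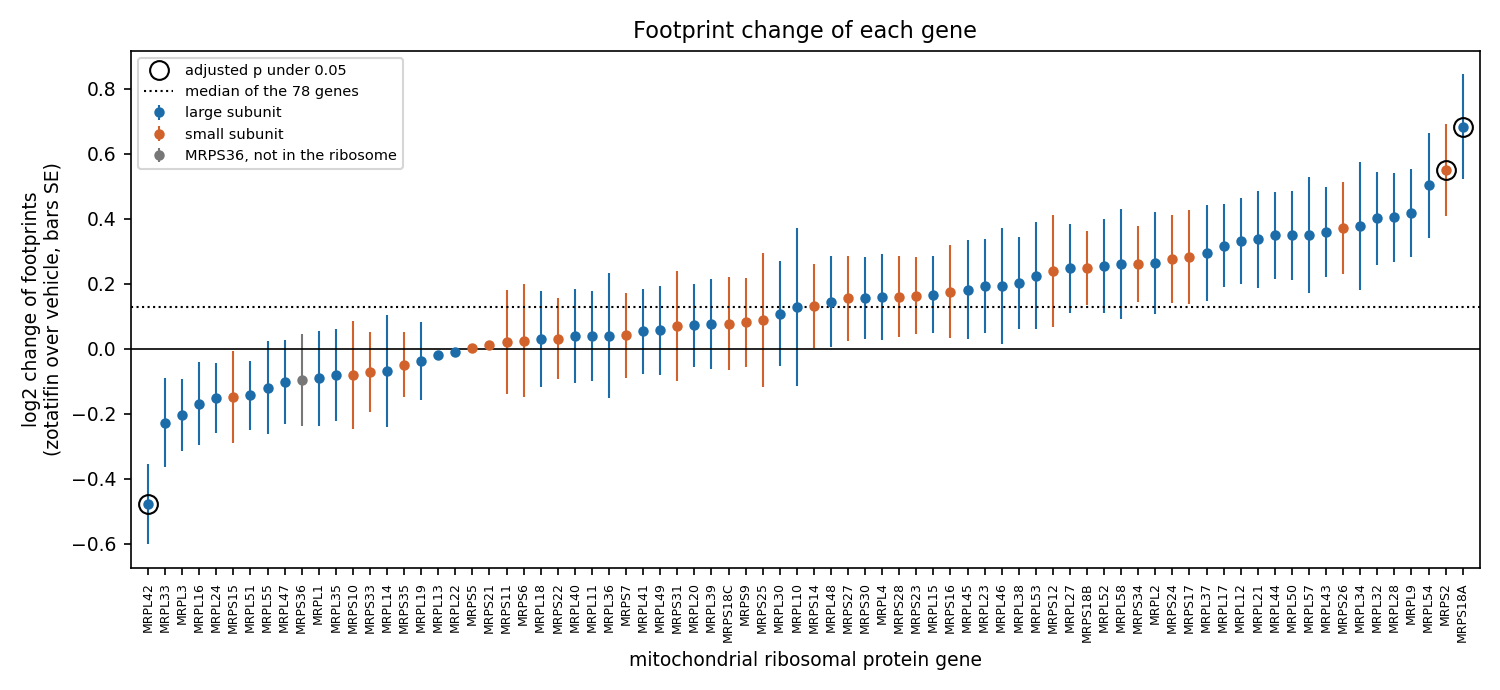
Log2 change of footprints (zotatifin over vehicle, 3 tumours each) for the 78 members in order of size, coloured by subunit; bars are standard errors from edgeR, and genes within 0.02 of no change have no bar. MRPL42 stands at the lower end at −0.48 and MRPS18A at the upper end at 0.68, with the middle of the order between 0.0034 and 0.26 (interquartile range).

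MRPS18A showed the largest rise. It is a mitochondria-specific protein of the large subunit in spite of its symbol, one of 3 human paralogues of bacterial S18 (transcript ENST00000372133, chr6:43671202-43687791 in GRCh38). Its footprint level was 35.4, 35.5 and 34.3 CPM in the vehicle tumours and 58.1, 56.4 and 55.0 CPM in the zotatifin tumours. Each treatment held together closely and the groups did not overlap. These levels rest on only 72, 64 and 54 counts in the vehicle and 67, 46 and 85 in the zotatifin libraries. Counting error alone would spread such levels more widely, so their closeness is no measure of precision. The means were 35.1 ± 0.663 and 56.5 ± 1.58 CPM (SD, n = 3), a log2 change of 0.68 ± 0.16 (SE, adjusted p = 0.0088). Its RNA was 38.3, 38.0 and 41.4 CPM in vehicle and 36.4, 40.2 and 37.3 CPM in zotatifin tumours, with a log2 change of −0.05 ± 0.14 (adjusted p = 0.889). The footprint rise was therefore seen at overlapping RNA levels. Its gene span overlaps that of RSPH9, and the strand setting of the counting is not given in the sources used here. Without vehicle tumour 1 the adjusted p was 0.053.

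Its paralogues sit in the small subunit. MRPS18B, which is mitochondria-specific, had 165, 159 and 168 footprint CPM in vehicle and 170, 211 and 204 CPM in zotatifin tumours. Its groups did not overlap, but the lowest zotatifin value was close to the highest vehicle value, and its log2 change of 0.25 ± 0.11 did not pass (adjusted p = 0.191). MRPS18C, the closest in role to bacterial S18, had 73.2, 68.8 and 64.2 CPM in vehicle and 66.8, 74.8 and 76.3 CPM in zotatifin tumours, which overlapped (0.08 ± 0.14, adjusted p = 0.800). Differences between the paralogues were not tested.

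MRPS2, the counterpart of bacterial S2 in the small subunit (ENST00000241600, chr9:135499965-135504673), had 75.2, 68.8 and 57.8 footprint CPM in vehicle and 91.1, 112 and 97.0 CPM in zotatifin tumours. All zotatifin tumours were higher, although each treatment spread more than for MRPS18A. The means were 67.3 ± 8.79 and 99.9 ± 10.5 CPM (SD, n = 3), a log2 change of 0.55 ± 0.14 (adjusted p = 0.017). RNA of MRPS2 was 77.5, 94.6 and 71.8 CPM in vehicle and 81.1, 82.1 and 71.7 CPM in zotatifin tumours (−0.05 ± 0.13, adjusted p = 0.872), with overlapping groups. The footprint call was lost without vehicle tumour 3 (adjusted p = 0.081) or zotatifin tumour 2 (adjusted p = 0.053).

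MRPL42 was the member that fell. It is a mitochondria-specific protein of the large subunit (ENST00000552217, chr12:93467514-93516214). Footprints were 254, 202 and 183 CPM in vehicle and 143, 163 and 155 CPM in zotatifin tumours, with vehicle tumour 1 well above the other vehicle tumours. The means were 213 ± 36.8 and 154 ± 10.0 CPM (SD, n = 3), a log2 change of −0.48 ± 0.12 (adjusted p = 0.017). RNA was 303, 288 and 260 CPM in vehicle and 253, 224 and 270 CPM in zotatifin tumours, which overlapped (−0.19 ± 0.12, adjusted p = 0.437). Without vehicle tumour 1 the footprint change was −0.33 (adjusted p = 0.195), and without zotatifin tumour 1 the adjusted p was 0.084. RefSeq lists 6 pseudogenes named for MRPL42, more than for most members, and reads shared with them could move its counts. Over all members, 42 have at least 1 such pseudogene.

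MRPL54, a mitochondria-specific protein of the large subunit, had the next largest rise, from 53.6, 56.6 and 37.5 footprint CPM in vehicle to 68.6, 77.3 and 67.3 CPM in zotatifin tumours. The groups did not overlap, and the log2 change of 0.50 ± 0.16 missed the threshold (adjusted p = 0.055). MRPL9, the counterpart of bacterial L9, named here after its values were seen, stood at 0.42 ± 0.13 with the same adjusted p. At the other end, MRPL33 and MRPL3, counterparts of bacterial L33 and L3, followed MRPL42. MRPL33 had 96.8, 99.4 and 82.6 CPM in vehicle and 85.0, 82.2 and 73.1 CPM in zotatifin tumours (−0.23 ± 0.14, adjusted p = 0.345). MRPL3, which lies near the peptidyl transferase centre, had 238, 221 and 198 CPM and 183, 199 and 191 CPM (−0.20 ± 0.11, adjusted p = 0.287). Both pairs of groups overlapped.

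**Figure D2:**
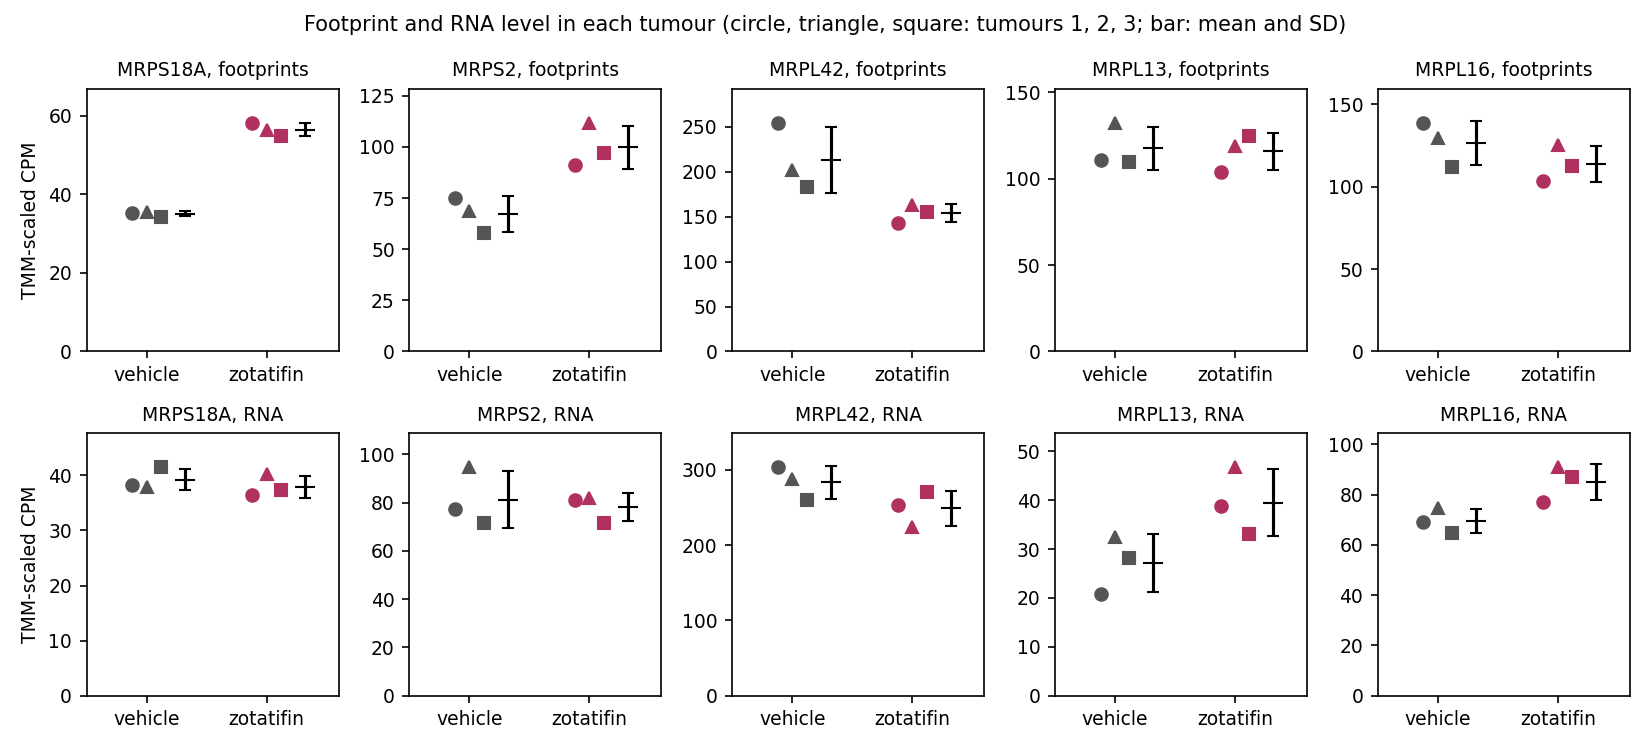
Footprint and RNA levels (CPM, TMM scaled) in each of the 3 vehicle and 3 zotatifin tumours for MRPS18A, MRPS2, MRPL42, MRPL13 and MRPL16; points are tumours and bars give the mean and SD. MRPS18A and MRPS2 are higher in every zotatifin tumour in footprints and overlap in RNA, and MRPL42 is lower in every zotatifin tumour in footprints.

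Members with other known roles were described next, none of which passed in footprints. MRPL12, which forms the flexible stalk that recruits translation factors and is also known to bind mitochondrial RNA polymerase, had 112, 138 and 97.9 footprint CPM in vehicle and 153, 158 and 131 CPM in zotatifin tumours (0.33 ± 0.13, adjusted p = 0.127). A single vehicle tumour overlapped the zotatifin range. MRPL11, at the base of that stalk, had 78.6, 68.3 and 73.7 CPM and then 77.2, 73.6 and 75.7 CPM (0.04 ± 0.14, adjusted p = 0.904), with the treatments interleaved. MRPS12, near the decoding centre, had 35.4, 38.9 and 31.8 CPM in vehicle and 42.5, 41.7 and 41.4 CPM in zotatifin tumours, with no overlap (0.24 ± 0.17, adjusted p = 0.450). MRPS30, a large subunit protein, had 98.3, 103 and 110 CPM and then 117, 104 and 122 CPM (0.16 ± 0.13, adjusted p = 0.508). MRPS36, outside the ribosome, had 83.5, 73.8 and 78.8 CPM and then 78.1, 62.5 and 77.6 CPM (−0.10 ± 0.14, adjusted p = 0.742).

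By subunit, 37 of 51 large subunit members had a footprint change above 0, with a median of 0.16, and 22 of 26 small subunit members, with a median of 0.084. By origin, the 31 mitochondria-specific members had a median of 0.18 with 27 above 0, and the 46 with a bacterial counterpart had a median of 0.074 with 32 above 0. Members with a bacterial counterpart were above 0 in 18 of 30 cases in the large subunit (median 0.056) and in 14 of 16 in the small subunit (median 0.079), and mitochondria-specific members in 19 of 21 (median 0.20) and 8 of 10 (median 0.12). The difference between these classes was not tested. Summed over all members, messages of the mitochondrial ribosome took 0.748% ± 0.0416 of all footprint counts in vehicle (0.700 to 0.777%) and 0.794% ± 0.0162 in zotatifin tumours (0.784 to 0.813%, SD, n = 3). The corresponding RNA shares were 0.578% ± 0.0273 (0.554 to 0.608%) and 0.614% ± 0.0332 (0.591 to 0.652%). For all members together the footprint ranges were separate and the RNA ranges overlapped. The gap was narrow in TMM-scaled CPM, where the highest vehicle sum was 7802 and the lowest zotatifin sum 7815. Within each subunit the footprint shares overlapped: 0.427 to 0.478% and 0.470 to 0.500% for the large, 0.265 to 0.298% and 0.297 to 0.307% for the small.

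**Figure D3:**
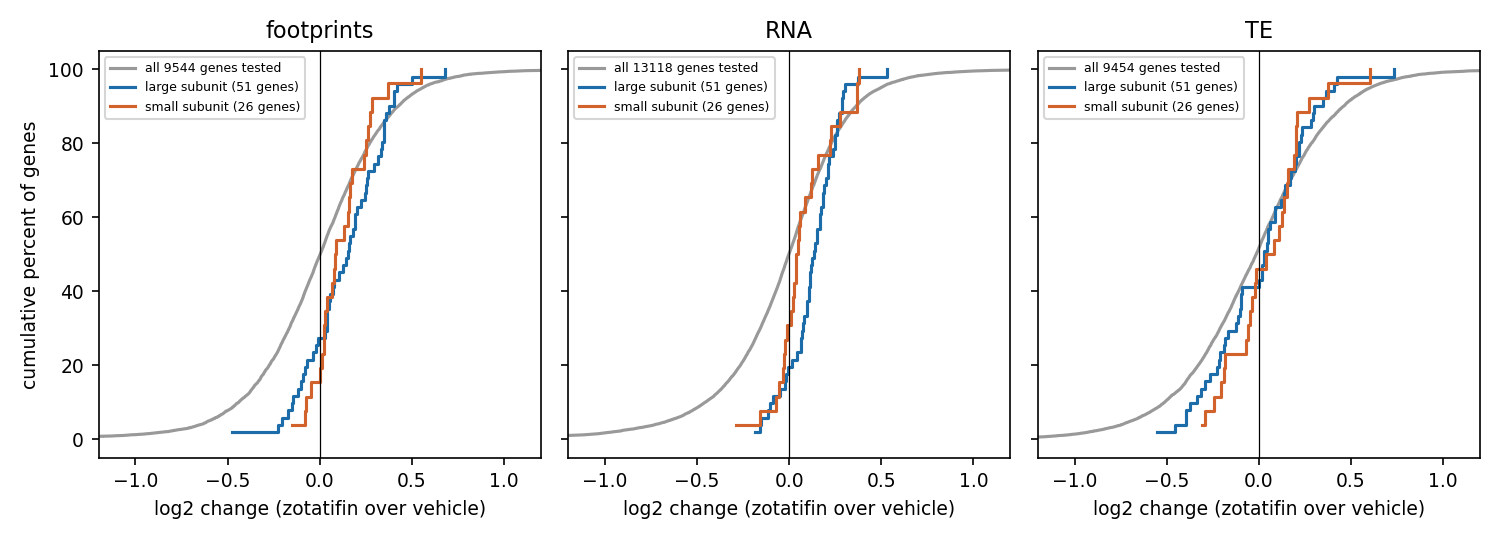
Cumulative share of genes by log2 change (zotatifin over vehicle) in footprints, RNA and translational efficiency, for the 51 large subunit members, the 26 small subunit members and all genes tested. Medians were 0.16 (large), 0.084 (small) and 0.0030 (all) in footprints, 0.14, 0.042 and −0.0023 in RNA, and 0.031, 0.061 and −0.014 in translational efficiency.

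In RNA, no member was called. With edgeR the count was 0 of 78, where 1.72% of the 13118 genes tested were called (0.808% higher, 0.907% lower). With DESeq2 it was also 0 of 78, where 2.67% of 12306 genes were called. In the edgeR fit 5 members had an unadjusted p under 0.05, all higher, against 18.3% of all genes. The signs again leaned upwards: 59 of 78 were above 0, against 49.7% of all genes, with a median of 0.11 against −0.0023. This median was about the size of its SD between libraries (0.107), and it fell to 0.039 without zotatifin tumour 2, with 46 of 78 above 0, and to 0.056 without vehicle tumour 1, with 56 above 0. For 13 members all zotatifin values lay above all vehicle values (12.3% of all genes), and for 0 all lay below (10.9% of all genes). The large subunit had 41 of 51 members above 0 (median 0.14) and the small subunit 18 of 26 (median 0.042).

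MRPL13, the counterpart of bacterial L13, had the largest RNA change, from 20.8, 32.6 and 28.2 CPM in vehicle to 38.8, 46.7 and 33.1 CPM in zotatifin tumours. The lowest zotatifin tumour lay just above the highest vehicle tumour, and the log2 change of 0.53 ± 0.18 did not pass (adjusted p = 0.117). MRPS31, a mitochondria-specific protein of the small subunit, had 12.9, 19.5 and 16.8 CPM in vehicle and 20.8, 19.9 and 23.3 CPM in zotatifin tumours (0.38 ± 0.19, adjusted p = 0.294), again without overlap. MRPL54 had 26.9, 30.0 and 28.6 CPM and then 34.0, 43.8 and 33.5 CPM (0.37 ± 0.16, adjusted p = 0.206), so that both its footprints and its RNA were higher in every zotatifin tumour. The lowest changes belonged to MRPS25, MRPL42 and MRPL40. MRPS25 had 94.6, 63.7 and 93.2 CPM in vehicle and 74.4, 56.7 and 74.7 CPM in zotatifin tumours (−0.29 ± 0.15, adjusted p = 0.323). MRPL40 had 53.7, 65.8 and 46.9 CPM and then 48.5, 52.3 and 47.9 CPM (−0.16 ± 0.14, adjusted p = 0.576). In these the treatments overlapped. Without vehicle tumour 2 the change of MRPL40 was −0.016 (adjusted p = 0.966), without zotatifin tumour 2 that of MRPS25 was −0.17 and that of MRPL42 −0.11, and without vehicle tumour 1 that of MRPS31 was 0.23. In the authors' deposited table of RNA changes, 0 of 78 members had an adjusted p under 0.05, where 2.47% of all genes did, and the lowest member value was 0.138.

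The measured footprint and RNA changes of the members did not follow each other closely. Of the 78 members, 45 were higher in both assays, 5 lower in both and 28 had opposite signs. The Pearson correlation across the members was 0.039, against 0.243 across all genes. Both are descriptions across genes, which share libraries and are not independent replicates. Member changes were small beside their SE (interquartile ranges 0.0034 to 0.26 in footprints and 0.010 to 0.21 in RNA, median SE 0.140 and 0.136). Error of this size lowers a correlation, so the low value does not show that the assays moved independently.

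**Figure D4:**
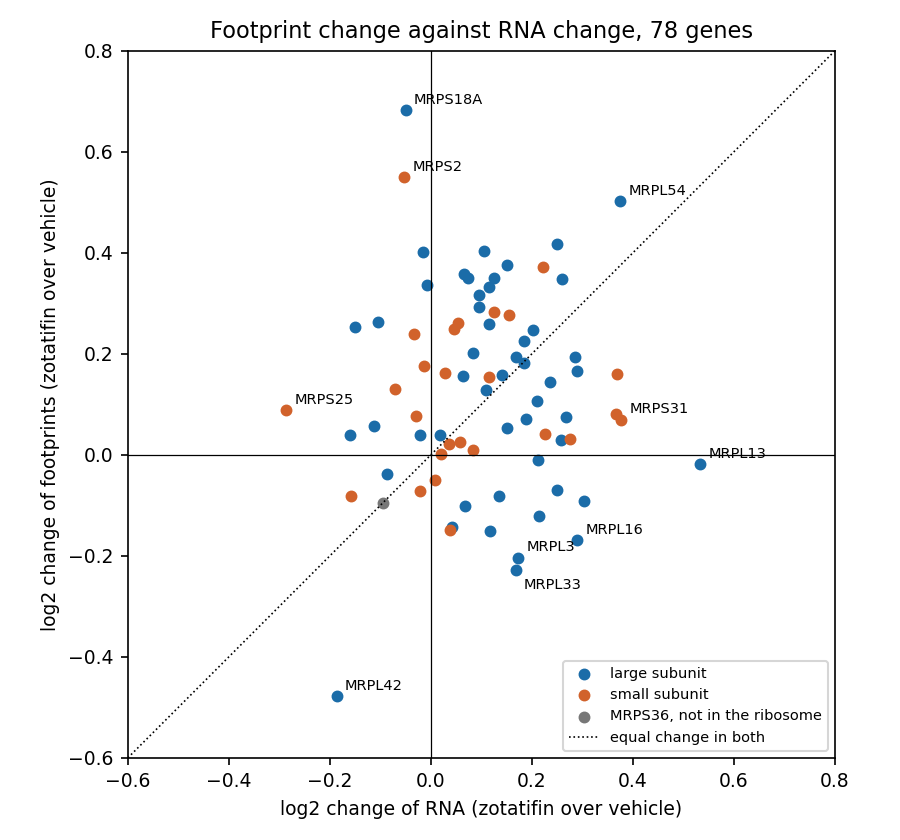
Log2 change of RNA (horizontal) against log2 change of footprints (vertical) for the 78 members, zotatifin over vehicle. MRPS18A and MRPS2 lie high at an RNA change of −0.05, MRPL42 lies low in both, and MRPL13 lies to the right at 0.53 with a footprint change near 0.

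Translational efficiency (TE, footprints relative to RNA, log2) was compared between treatments in a model over all 12 libraries, whose interaction term asks whether footprints changed beyond RNA. With edgeR, 0 of 78 members were called, where 2.04% of the 9454 genes tested were (0.444% higher, 1.6% lower). With DESeq2, 0 of the 72 members tested were called, where 3.5% of 6651 genes were. Unadjusted p was under 0.05 for 5 members, MRPS18A and MRPS2 higher and MRPL13, MRPL16 and MRPL3 lower, against 15.1% of all genes. The median change was 0.036 against −0.014 for all genes, and 44 of 78 were above 0, against 48.4%. The values of 9 members lay apart upwards (10.7% of all genes) and those of 6 apart downwards (15.6%). Since footprints and RNA came from the same lysates, a second fit added each tumour as a block. It called 9.14% of all genes, 3.14% higher and 6% lower, and 4 members: MRPS2 (0.62, adjusted p = 0.0081), MRPS18A (0.74, adjusted p = 0.012), MRPL13 (−0.54, adjusted p = 0.036) and MRPL16 (−0.45, adjusted p = 0.041).

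For MRPS18A the log2 ratio was −0.11, −0.10 and −0.27 in vehicle and 0.68, 0.49 and 0.56 in zotatifin tumours, a change of 0.73 ± 0.21 (adjusted p = 0.057 without the block). The ratio passed 0, a point that is set by scaling each assay to its own libraries and has no meaning of its own. MRPS2 moved from −0.04, −0.46 and −0.31 to 0.17, 0.44 and 0.44 (0.61 ± 0.20, adjusted p = 0.108 without the block). MRPL32, whose protein is trimmed by the m-AAA protease before it joins the large subunit, came next, with 0.80, 0.53 and 0.44 in vehicle and 1.28, 0.80 and 1.05 in zotatifin tumours (0.42 ± 0.23, adjusted p = 0.379). Its zotatifin values began where its vehicle values ended.

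At the lower end of TE change, MRPL13 and MRPL16 had RNA levels that were higher in every zotatifin tumour and footprint levels that overlapped. MRPL13 had footprints of 111, 132 and 110 CPM in vehicle and 104, 119 and 125 CPM in zotatifin tumours, and its log2 ratio was 2.42, 2.02 and 1.96 and then 1.42, 1.35 and 1.92 (−0.55 ± 0.22, adjusted p = 0.200 without the block). MRPL16, the counterpart of bacterial L16, had RNA of 69.2, 74.5 and 64.8 CPM in vehicle and 77.1, 90.8 and 86.9 CPM in zotatifin tumours (0.29 ± 0.13, adjusted p = 0.220). Its footprints were 139, 129 and 112 CPM and then 103, 125 and 113 CPM, and its log2 ratio was 1.00, 0.80 and 0.79 and then 0.42, 0.46 and 0.37 (−0.46 ± 0.18, adjusted p = 0.190 without the block). Its ratios did not overlap between treatments. MRPL1, of the mobile L1 stalk, had ratios of 2.36, 1.62 and 2.20 and then 1.84, 1.34 and 1.65 (−0.40 ± 0.25, adjusted p = 0.463), which overlapped.

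In the authors' deposited table of TE changes, 10 members were higher and 5 lower at an FDR under 0.05, where 8.09% and 10.2% of all genes were, 18.3% in both directions. The authors' deposited table gave MRPS18A an estimate of 0.52 on the natural log scale (FDR 0.00063), MRPS2 0.37 (FDR 0.0014), MRPL16 −0.34 (FDR 0.00029) and MRPL13 −0.46 (FDR 1.04e-05). The estimate was above 0 for 51 of 78 members in the authors' deposited table, against 50.3% of all genes. The other higher members of the authors' deposited table were MRPL12, MRPL21, MRPL28, MRPL32, MRPL49, MRPL52, MRPS18B and MRPS34, and the other lower ones were MRPL24, MRPL3 and MRPL42.

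The level of TE in vehicle tumours set the members above most genes. The member median was 0.41 (interquartile range −0.12 to 1.04) against −0.19 for all genes (−1.10 to 0.66), and 59 of 78 members lay above the median of all genes. In zotatifin tumours the medians were 0.50 and −0.23. The large subunit had a vehicle median of 0.39 and the small subunit 0.48. The highest ratios were those of MRPS28 (2.25 ± 0.445), MRPL39 (2.23 ± 0.481) and MRPL13 (2.13 ± 0.248, SD, n = 3), and the lowest were those of MRPS25 (−1.67 ± 0.481), MRPL10 (−1.07 ± 0.0932) and MRPS26 (−1.07 ± 0.111). The 3 highest differed from each other by less than their spread, as did MRPL10 and MRPS26, while MRPS25 lay below MRPL10 by more than either SD. MRPS28 and MRPS26 are small subunit proteins, MRPL39 is mitochondria-specific, and MRPL10 anchors the stalk of MRPL12. The order was kept after treatment, with a Spearman rho of 0.942 between vehicle and zotatifin levels across the 78 members. The part of each transcript that was counted in either assay is not given in the sources used here, so ratios of different genes may not rest on like parts of their transcripts. The span of MRPS28 also overlaps a readthrough gene with TPD52, and that of MRPS25 overlaps the coding gene NR2C2.

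**Figure D5:**
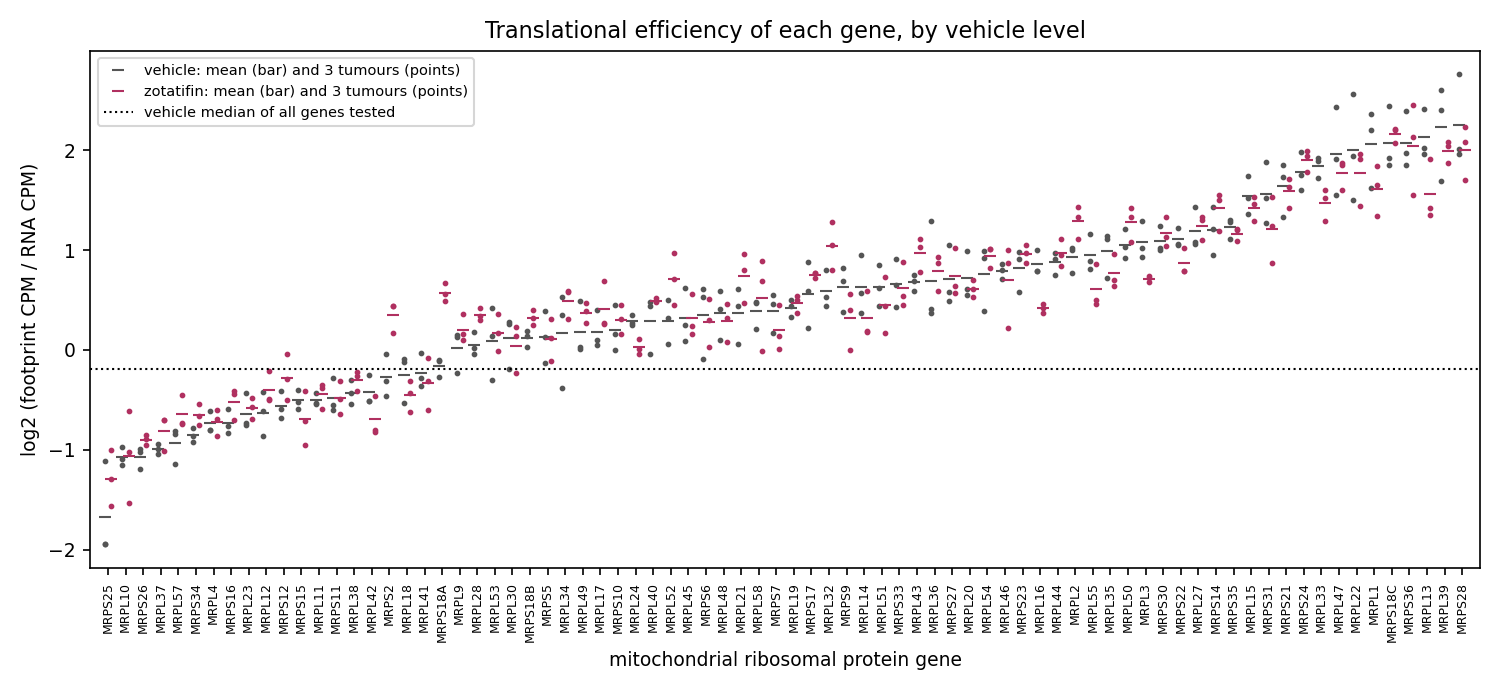
Log2 ratio of footprint to RNA CPM for the 78 members in vehicle and zotatifin tumours, in order of the vehicle level; points are the 3 tumours of a treatment, short bars their mean, and the dotted line is the vehicle median of all genes. Levels run from −1.67 for MRPS25 to 2.25 for MRPS28, and 59 of 78 vehicle levels lie above the median of all genes at −0.19.

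Set against the promoters shown above, MRPS18A rose and MRPL42 fell in footprints while both carried the YY1 motif, and MRPS2 rose without it. Members with the YY1 motif had a median footprint change of 0.16 (16 of 21 above 0) and those without it 0.081 (37 of 49). Members with the ETS motif had 0.13 (23 of 30) and those without it 0.084 (30 of 40). The RNA medians had the opposite order, 0.064 with and 0.12 without YY1, and 0.094 with and 0.11 without ETS. None of these differences was tested.

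Other genes that build or use the mitochondrial ribosome were read from 4 lists. Of 5 ribosomal proteins with symbols of another form (DAP3, PTCD3, GADD45GIP1, CHCHD1 and AURKAIP1), all 5 had a footprint change above 0 (median 0.13) and GADD45GIP1 rose from 104 ± 10.3 to 145 ± 12.3 CPM (0.47 ± 0.13, adjusted p = 0.021). Of 16 mitochondrial translation factors, TUFM, the elongation factor that delivers tRNA to this ribosome, rose from 397 ± 23.8 to 514 ± 42.5 footprint CPM (0.37 ± 0.10, adjusted p = 0.026), and the list median was 0.081. Of 27 assembly factors tested in footprints, 25 were above 0 (median 0.14), and the helicase DDX28 (0.69 ± 0.19, adjusted p = 0.023) and the GTPase MTG1 (0.60 ± 0.19, adjusted p = 0.049) rose. None of these 3 lists had a call in RNA or TE. Their RNA medians were 0.00079 (3 of 5 above 0) for the ribosomal proteins, 0.081 (11 of 16) for the translation factors and 0.12 (19 of 28) for the assembly factors. Of 20 genes tested in footprints for replication, transcription and processing of mitochondrial DNA and RNA, the polymerase POLRMT rose (0.58 ± 0.15, adjusted p = 0.019) and the transcription factor TFAM, which packages mitochondrial DNA, fell (−0.51 ± 0.14, adjusted p = 0.027). The list median was 0.0017, with 10 above 0. In RNA, 19 of 21 genes of that list were above 0 (median 0.12), and the helicase TWNK rose from 31.4 ± 3.20 to 50.9 ± 6.98 CPM (0.70 ± 0.15, adjusted p = 0.023).

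Many members share their promoter region with a neighbour. A divergent coding gene started within 1000 bases of 20 of 70 members (28.6%), against 12.3% of coding genes. In 1 case both partners are members: MRPL46 and MRPS11 start 320 bases apart, and their footprint changes were 0.19 and 0.02. Of the other partners, SARS2, the mitochondrial seryl-tRNA synthetase that starts 181 bases from MRPS12, rose in footprints (0.77, adjusted p = 0.042), and TMEM63B, 240 bases from MRPL14, fell (−1.05, adjusted p = 0.043). MRPS12 and MRPL14 themselves changed by 0.24 and −0.07. Over 16 partners tested in footprints the median was 0.055 with 10 above 0, and the members beside all 20 had a median of 0.17 with 18 above 0. These medians cover unlike sets and cannot be set against each other. The members whose partners were not tested all lay above that member median: MRPL37 (0.29), MRPL50 (0.35), MRPL54 (0.50) and MRPS2 (0.55). In RNA all 20 partners were tested, with a median of 0.16 for the partners and 0.084 for the members, each with 14 above 0. These differences were not tested.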

How the data were processed

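Footprint and RNA tables hold raw counts per transcript as deposited. Per the submitters' processing notes, reads went through Bowtie2 2.3.5, UMI-tools, cutadapt 2.3 and DESeq2, with hg38 as the build, and neither the order nor the strand setting is given in the sources used here. In the RNA comparison table deposited by the authors, the mean is a signal in normalised counts, the change and its error are log2, the statistic is a Wald score, and a plain and an adjusted p-value follow. The authors' deposited TE estimate was read as a natural log, since its weights on the log2 footprint and RNA changes were 0.665 and −0.666 over 1566 genes with a mean above 200 counts, where the natural log of 2 is 0.693.

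Counts were analysed with edgeR 4.0.16 in R 4.3.3: filterByExpr (minimum count 10, minimum total 15), TMM scaling, and the robust quasi-likelihood test of zotatifin against vehicle per assay. Change of TE was the interaction of assay and treatment over 12 libraries. Benjamini-Hochberg adjusted p under 0.05, over all genes tested, was a call; no SE is given for changes under 0.02. Levels are TMM-scaled CPM, which were not compared between genes. The replicates are labelled biological. DESeq2 1.42.0, other scalings and filters, a replicate block and leaving out each tumour were alternatives. In TE the block was the tumour. In footprints or RNA alone it was the replicate number, which joins different tumours of the treatments. The fits were tested on simulated counts.

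Replicate numbers were checked on 4889 genes (mean count 50 or more). Footprint and RNA libraries of 1 treatment and number correlated at 0.217 to 0.440 (6 pairs), other numbers at −0.381 to 0.119 (12 pairs), so a number marks a tumour, as the shared lysates in the labels state. Vehicle and zotatifin libraries of 1 number correlated at −0.095 to 0.181 and were not paired.

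Members named are those called, the 3 highest and 3 lowest changes per comparison and vehicle TE levels (mean of at least 20 counts), and 8 with known roles; the part of the rule on levels per coding length was not applied. MRPL16, MRPL9 and genes given only by symbol or partner were added after their values were seen. The gene family and the lists were picked with earlier results of these data known; membership follows the symbol alone. Gene positions are RefSeq's, by symbol or synonym. Some tumour markers of the list are not reported here.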

Additional observations from a re-analysis of the deposited data

How the results depend on the processing

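Over 12 alternatives, 18 values of single genes kept their sign in all 215 recomputed values. Of these recomputed values 5 lost and 11 gained a call, and 9 genes' results stayed on their side of the threshold under all. The 18 were picked as called or as the largest rises and falls in the same data. Their kept signs therefore say little about the other members. Members called in footprints were 3 in the reported fit. DESeq2 called the same 3 of the 76 members it tested (3.95%, against 8.47% of all genes). Upper-quartile scaling gave 5 (6.41%, against 7.22% of all genes) and no filter gave 5 (6.41%, against 6.02%). The replicate block gave 6 (7.69%, against 8.34%), and leaving out a tumour gave 1 to 6. Without vehicle tumour 1 only MRPS2 was called (1.28%, against 1.9%), without vehicle tumour 2 there were 5 (6.41%, against 7.43%), and without zotatifin tumour 3 there were 6 (7.69%, against 5.29%). Members called in RNA, 0 in the reported fit, were 1 without the filter and 1 with the replicate block (1.28%, against 3.4% and 4.02% of all genes), each time MRPL13 (0.55, adjusted p = 0.030, and 0.54, adjusted p = 0.046). Members called in TE, 0 in the reported fit, were 1 with a mean of at least 20 counts (MRPS18A, adjusted p = 0.045; 2.52% of all genes) and 4 with tumours as the replicate block (5.13%, against 9.14%). MRPL54 passed in footprints under upper-quartile scaling, without the filter, with the block and without vehicle tumour 2 (adjusted p 0.032 to 0.044). In footprints and in RNA the block joined unpaired tumours by number, so calls gained with it rest on an arbitrary grouping. Member medians ran from 0.088 to 0.15 in footprints, 0.039 to 0.17 in RNA and −0.012 to 0.083 in TE. The TE median was below 0 without vehicle tumour 2 or 3. All moves were smaller than the SD of the median between libraries (0.067 in footprints, 0.107 in RNA, 0.099 in TE). In RNA that SD was about as large as the median and in TE larger, so even a change of sign in TE stayed within it. The cause of these shifts was not tested. Over all genes, leaving out a tumour gave 185 (vehicle 1) to 726 (vehicle 2) calls in footprints, against 681. In RNA it gave 11 (vehicle 1), 25 (vehicle 3), 48 (zotatifin 3), 56 (zotatifin 1), 233 (zotatifin 2) and 396 (vehicle 2), against 225. A detection limit was not measured.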

Other observations

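The 3 members on chromosome 8 had RNA changes among the higher ones, a grouping chosen after their values were seen: 0.53 for MRPL13, 0.37 for MRPS28 and 0.29 for MRPL15. None passed the threshold, and their footprint changes were −0.02, 0.16 and 0.17. Relative to the median change of all genes on the same chromosome, 60 of 78 members were above 0 in footprints (median 0.13), 59 in RNA (median 0.11) and 44 in TE (median 0.035).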
